A study of Mus musculus with 40 samples.

Results

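The cytosolic ribosomal protein genes were taken as the protein-coding genes of the mouse mm10 GENCODE annotation whose symbol is Rpl or Rps followed by a number and, in some, letters. The ribosomal S6 kinases, whose symbols begin with Rps6k, and pseudogenes marked -ps were left out. The rule found 78 genes among 21911 protein-coding genes, 47 for proteins of the large ribosomal subunit (Rpl) and 31 for proteins of the small subunit (Rps), spread over 19 chromosomes. A wider reading of the symbols, which adds Rpl22l1, Rpl7l1, Rps19bp1 and Rps3a1, gives 82 genes. The Rplp proteins, Rpsa, Fau and Rack1, among others, belong to the same particle under other names and are given below as a separate list.

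A ribosome is built from a small subunit, which reads the mRNA, and a large subunit, which joins amino acids, and each holds ribosomal RNA and a set of proteins made in balanced amounts. The genes for these proteins are among the most actively transcribed in dividing and in growing cells, and many of their mRNAs begin with a run of pyrimidines, the terminal oligopyrimidine (TOP) tract, through which mTOR signalling controls their translation. Acetylation of lysine 27 of histone H3 (H3K27ac) marks the nucleosomes beside active promoters and enhancers. HMGN1 and HMGN2 are chromatin proteins that bind nucleosomes and are found preferentially at such regions.

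H3K27ac was measured by chromatin immunoprecipitation and sequencing (ChIP-seq) in primary preadipocytes from the inguinal white fat of mice of the C57BL/6 strain, either wild type (WT) or lacking both genes in every cell (Hmgn1-/- and Hmgn2-/-, here DKO). The cells were sampled as confluent preadipocytes (day 0) and at days 3, 6 and 9 of differentiation, the last labelled as brown-like adipocytes. Differentiation medium with insulin, dexamethasone, IBMX, T3 and rosiglitazone was followed by insulin and T3, so that WT and DKO cells at days 3, 6 and 9 had received the same agents, and day 0 cells of both genotypes none. Each of the 8 groups had 3 libraries, and each library had its own list of peaks, 24 lists in all. The cells were bulk cultures prepared from fat of young adult animals, and the labels do not say whether replicates came from separate animals, so p-values measure the spread between these libraries, and more acetylated cells and more acetylation per cell cannot be told apart.

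The lists held 47448 to 115923 peaks. Their lengths differed between groups: the 3 WT lists of day 6 held 98503 to 105511 peaks, and the 3 DKO lists of day 6 held 47448 to 74867. The list of DKO day 0 replicate 2 stood apart, with a median peak width of 1076 bp and a narrowest peak of 440 bp, where the other 23 lists had medians of 313 to 376 bp. Read depth is unknown. The Hmgn2 window held a peak in 12 of 12 WT and 0 of 12 DKO libraries, whereas Hmgn1 had a peak in all 24, so only Hmgn2 checks the genotype labels here. Of 8 adipocyte markers, Adipoq and Cidec had a peak in all 12 libraries of days 6 and 9 and in none of days 0 and 3. Pparg, Fabp4 and Lpl had one in all 24, Plin1 and Retn already in libraries of day 3, and Lep in none. Of 7 preadipocyte markers, Pdgfra, Pdgfrb and Ly6a had a peak in all 24, Zfp423 in 21 and Dlk1 in none. Cd34 and Cd24a had no peak at day 0 and gained one in later libraries. The summed kb under peaks of the preadipocyte markers were 10.464 to 10.992 (WT) and 9.866 to 12.841 (DKO) at day 0. At day 9 they were higher, 12.746 to 15.056 (WT) and 13.849 to 15.208 (DKO). Of 7 brown fat genes 2, Ucp1 among them, had no peak in any library. The summed kb under peaks of the brown fat list at day 9 were 2.11 to 2.59 in WT and 4.92 to 6.06 in DKO libraries. At day 3 the order was the reverse, 1.39 to 1.67 (WT) and 0.576 to 0.708 (DKO). At day 6 the ranges overlapped, 2.34 to 2.96 (WT) and 0.882 to 3.32 (DKO).

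Each gene was described in the window of 2 kb either side of its annotated start by 3 values: whether a peak overlapped it by at least 1 bp, how many kb lay under peaks, and the strength percentile. The strength percentile is the place of the window's strongest peak, by its −log10 q-value, among all peaks of that library's list, from 0 (no peak) to 100 (the strongest). All tests were run on the 13081 genes with a peak in at least 3 libraries, of which 75 were ribosomal protein genes, and p-values were adjusted over all 13081. Rpl39l was the 1 ribosomal protein gene, and 1 of 395 tested genes, that met this minimum through a single group of libraries, DKO day 9. Its values are therefore given below as a description and its calls are not read as tests.

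The promoters of 6 genes are printed below, in the RefSeq GRCm38.p6 sequence from 250 bases before to 50 bases after the RefSeq transcript start, 5′ to 3′ on the gene's own strand. They show the gene with the strongest peaks (Rps18), the weakest of those with a peak in every library (Rpl36a), Rps6, which gained kb under peaks by day 9, Rpl10a, which had fewer in DKO cells at day 6 as listed, Rpl39l, whose peak was found mainly in DKO cells of day 9, and Rps27rt, which had no peak. Capitals mark the first 5 transcribed bases and each match to a motif named in the next paragraph.
Rps18, chr17:33955616-33955915, minus strand: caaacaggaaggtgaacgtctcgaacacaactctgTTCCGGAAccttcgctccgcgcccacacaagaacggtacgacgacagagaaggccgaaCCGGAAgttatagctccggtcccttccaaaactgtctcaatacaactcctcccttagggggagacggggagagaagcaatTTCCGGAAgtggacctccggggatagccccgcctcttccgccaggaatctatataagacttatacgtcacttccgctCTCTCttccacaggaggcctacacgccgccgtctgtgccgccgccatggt
Rpl36a, chrX:134585404-134585703, plus strand: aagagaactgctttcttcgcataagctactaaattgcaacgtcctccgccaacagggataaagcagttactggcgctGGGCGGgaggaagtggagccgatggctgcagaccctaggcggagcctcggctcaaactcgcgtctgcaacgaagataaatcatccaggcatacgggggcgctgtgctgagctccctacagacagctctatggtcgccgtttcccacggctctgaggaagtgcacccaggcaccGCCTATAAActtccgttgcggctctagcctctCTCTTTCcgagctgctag
Rps6, chr4:86857318-86857617, minus strand: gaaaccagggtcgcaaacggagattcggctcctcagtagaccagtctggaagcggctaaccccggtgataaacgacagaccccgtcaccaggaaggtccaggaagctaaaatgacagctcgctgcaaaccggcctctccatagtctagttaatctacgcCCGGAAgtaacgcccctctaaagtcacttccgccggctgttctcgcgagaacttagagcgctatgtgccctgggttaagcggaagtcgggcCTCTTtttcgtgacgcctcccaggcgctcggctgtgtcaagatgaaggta
Rpl10a, chr17:28328221-28328520, plus strand: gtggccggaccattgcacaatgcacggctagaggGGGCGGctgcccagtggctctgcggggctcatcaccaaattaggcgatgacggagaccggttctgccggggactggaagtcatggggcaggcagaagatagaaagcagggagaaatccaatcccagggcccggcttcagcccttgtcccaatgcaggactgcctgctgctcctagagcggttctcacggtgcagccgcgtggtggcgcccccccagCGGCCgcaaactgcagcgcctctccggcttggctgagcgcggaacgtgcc
Rpl39l, chr16:10169978-10170277, plus strand: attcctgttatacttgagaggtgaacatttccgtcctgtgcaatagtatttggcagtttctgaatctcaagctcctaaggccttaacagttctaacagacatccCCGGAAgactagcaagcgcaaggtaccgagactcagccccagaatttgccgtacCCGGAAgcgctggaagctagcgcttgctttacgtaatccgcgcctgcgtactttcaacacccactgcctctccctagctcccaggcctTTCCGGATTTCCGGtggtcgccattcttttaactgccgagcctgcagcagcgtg
Rps27rt, chr9:114982690-114982989, minus strand: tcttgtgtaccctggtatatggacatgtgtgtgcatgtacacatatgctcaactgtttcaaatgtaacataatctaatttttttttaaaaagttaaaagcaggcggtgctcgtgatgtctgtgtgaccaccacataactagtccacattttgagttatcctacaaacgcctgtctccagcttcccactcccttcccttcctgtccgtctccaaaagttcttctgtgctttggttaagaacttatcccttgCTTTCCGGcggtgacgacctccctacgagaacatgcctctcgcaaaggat

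RefSeq held a promoter for 59 of the 78 genes and for 16522 genes in all, 7658 of them with a peak in all 24 libraries. The ETS core CCGGAA, searched on both strands, occurred in 29 of the 59 promoters (49.2%), against 19.6% of all promoters and 33.2% of those with a peak in every library, and several matches stand in the Rps18 promoter above. The first transcribed base was C followed by at least 4 pyrimidines, the letters of a TOP start, in 12 of 59 (20.3%), among them Rps18, Rps6 and Rps27rt, against 2.20% of all promoters and 2.39% of those with a peak in every library. The stretch CTCTTTC, searched on the transcribed strand only, occurred in 12 of 59 (20.3%), against 3.81% of all and 3.53% of those with a peak in every library. CTTTTC on the same strand occurred in 10 (16.9%), against 10.7% and 10.1%. On both strands, the GC box GGGCGG occurred in 33 (55.9%) against 48.0% of all and 67.9% of promoters with a peak in every library, and the YY1 core AAGATGG in 9 (15.3%) against 6.41% and 7.91%. The NRF1 letters GCGCATG occurred in 6 (10.2%), against 5.03% of all and 8.24% of promoters with a peak in every library. TATAAA occurred in 5 (8.47%), below the 12.8% of all promoters and above the 6.11% of those with a peak in every library. CTCTTTC and CTTTTC share the letters CTTT and may be counted at the same place, and any match is a description of letters in this window. The median promoter of the 59 was 56.7% G and C with 21 CpG sites, that of all genes 57% with 14, and that of genes with a peak in every library 61.3% with 22.

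Almost all ribosomal protein genes carried an H3K27ac peak at every day in both genotypes, and these peaks were among the strongest of each list. A peak was present in all 24 libraries at 73 of the 78 genes (93.6%), where 44.4% of all protein-coding genes had one in all 24. In single libraries 73 to 75 of the 78 had a peak. The median strength percentile of the 75 tested genes lay between 95.8 and 98.2 in every library, above the 77.2 to 91.9 of all tested genes and the 85.8 to 94.7 of the 9663 other genes with a peak in every library. Over the 24 libraries 57 genes had a median strength percentile of at least 95, which is 76.0% of the 75 tested, against 27.4% of all tested genes and 36.4% of the other genes with a peak in every library.

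**Figure D1:**
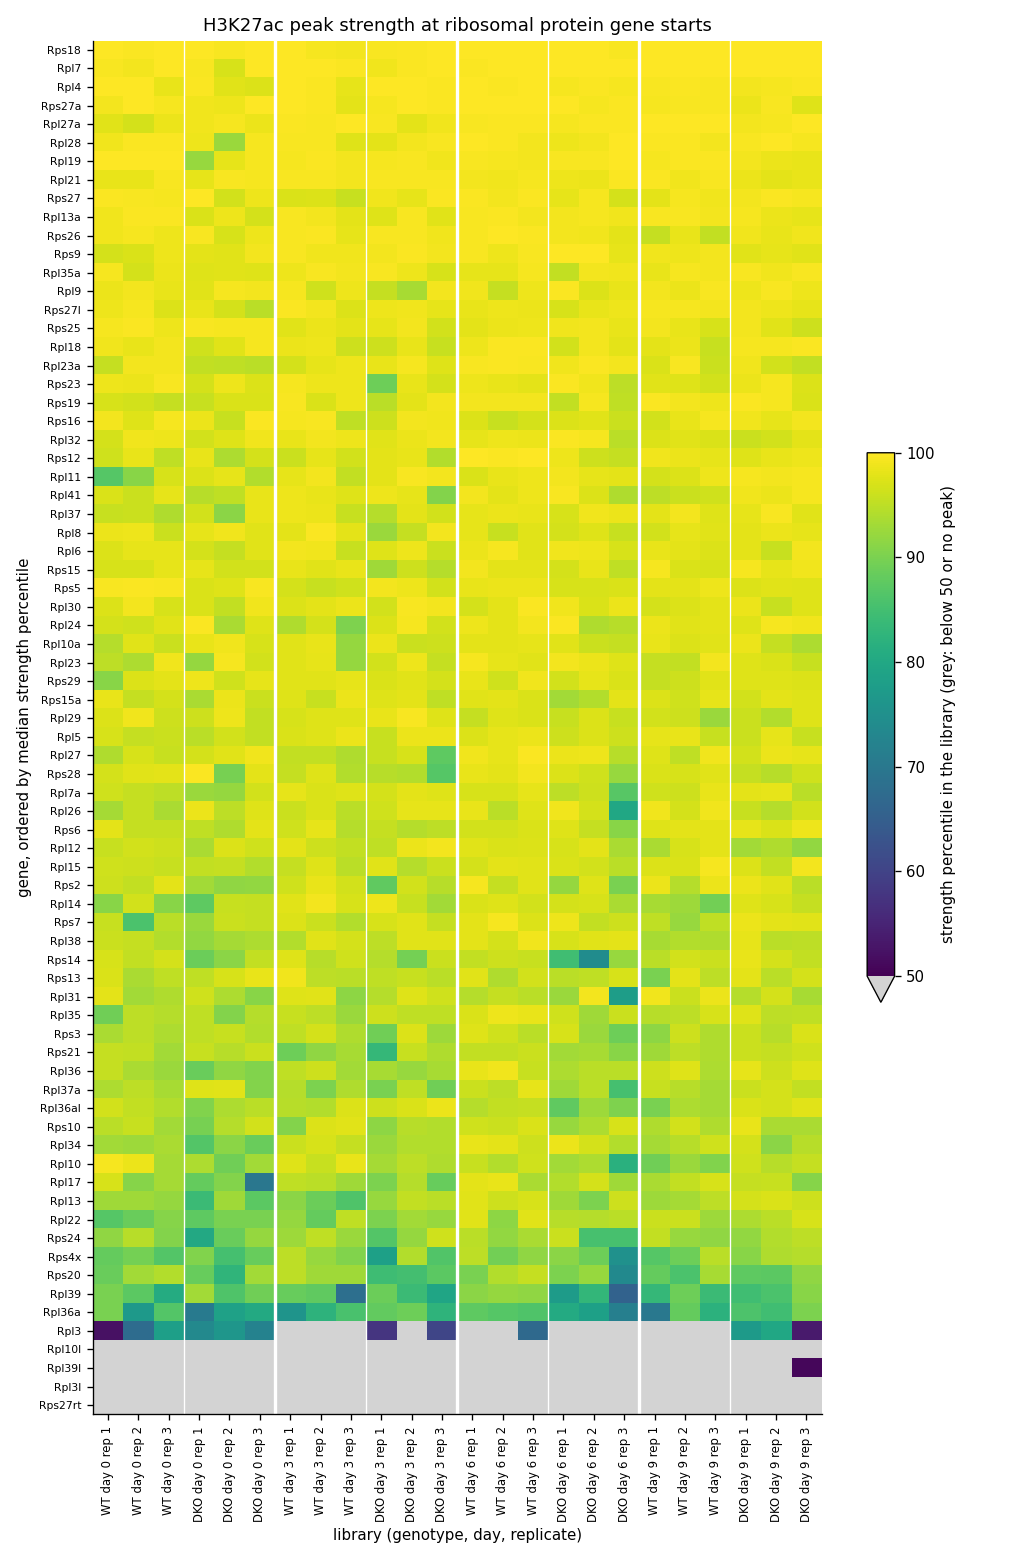
Strength percentile (colour, 50 to 100, grey below 50 or without a peak) of 74 of the 78 genes (rows, ordered by their median) in the 24 libraries (columns, by day and genotype). Of these rows, 69 have a peak in every column, the X-linked Rpl36a, Rpl39 and Rps4x are near the bottom of these, and Rpl3, Rpl10l, Rpl39l, Rpl3l and Rps27rt are grey in some or all libraries.

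The large and small subunits did not stand apart, with medians of 97.1 over the 45 tested Rpl genes and 97.4 over the 30 tested Rps genes. Their medians of kb under peaks were 2.02 and 1.97. The 4 X-linked genes had a lower median, 88.5 against 97.5 for the 71 tested autosomal ones. The 389 tested X-linked protein-coding genes, of 948, also lay lower, at 74.3, than the 12692 tested autosomal genes, of 20963, at 89.3. The 78 mitochondrial ribosomal protein genes, which serve the separate ribosome of that organelle, had a peak in all 24 libraries at 76. These 76 had a median strength percentile of 94.0 and 1.29 kb under peaks, against 97.2 and 2.0 kb for the 75 tested cytosolic genes. These medians are descriptions without a test, since the sets share every library.

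Other lists of genes that work with the ribosome had median strength percentiles from 92.8 to 97.6, where the other genes with a peak in every library had 92.7. The 7 ribosomal proteins outside the naming rule had a peak in all 24 libraries and a median strength percentile of 97.6. The 15 translation factors with a TOP mRNA, such as Eef1a1 and Eef2, also had one in all 24 and a median of 97.6. The 20 ribosome biogenesis genes, such as Ncl and Fbl, likewise had one in all 24, with a median of 95.1. Of 14 genes of the mTOR and MYC control of ribosome synthesis, 12 had a peak in all 24, with a median of 92.8, and the 2 without were Larp4 and Mycn.

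Rps18, a protein of the head of the small subunit, had the strongest peaks. Its strength percentile lay between 99.1 and 99.996 in the 24 libraries with a median of 99.9, and its peak was the 81 from the top of its list at the median. Rpl7 followed (96.9 to 99.97, median 99.9), and Rpl4 (median 99.7) and Rps27a (99.6), a gene that encodes ubiquitin fused to a small subunit protein, were also among the highest 5. The ranges of these 4 genes over the libraries overlapped. The windows of Rps18, Rpl7, Rpl4 and Rps27a also hold the start of a neighbouring gene (Vps52, Rdh10, Zwilch and Clhc1), so the peak cannot be assigned to either gene alone. Such a neighbour was present at 20 of the 78 genes (25.6%), against 14.2% of all protein-coding genes and 26.1% of the other genes with a peak in every library.

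The weakest of the 73 were Rpl36a (70 to 90.2, median 83.6) and Rpl39 (65.7 to 93.0, median 86.8), both X-linked, then Rps20 and X-linked Rps4x (both 90.1) and Rps24 (92.1). Rpl36al, an autosomal paralogue of Rpl36a, had a median of 94.7. Rpl36a and Rpl39 overlapped each other across libraries.

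In all, 5 genes lacked a peak in some libraries. Rpl3l, a paralogue of Rpl3 used in striated muscle, Rpl10l, a testis paralogue of Rpl10, and Rps27rt, an intronless copy of Rps27, had none in any of the 24. Rps27l, another paralogue of Rps27, had a peak in all 24 with a median of 98.6. Rpl39l, the paralogue of Rpl39 known from male germ cells, had a peak in 5 libraries. Rpl3, which lies near the peptidyl transferase centre of the large subunit, had a peak in 20 with a median strength percentile of 49.0, but its annotated GENCODE start lies 8.46 kb from its RefSeq start, and at the RefSeq start it had a peak in all 24 with a median of 99.4. RefSeq and GENCODE starts lay more than 1 kb apart at 8 of the 78 genes: Rps14 (27.5 kb), Rpl3, Rpl19 (4.71), Rps24 (3.55), Rpl36 (3.32), Rps27l (1.46), Rps10 (1.43) and Rpl22 (1.31). With RefSeq starts 74 of the 78 genes had a peak in all 24 libraries. Rpl19 went the other way from Rpl3, with strength percentiles of 92.3 to 99.9 at its GENCODE start and 56.2 to 96.7 at its RefSeq start. The order of the strongest and weakest genes above holds for GENCODE starts. The window of Rps14 lies at the start of its neighbour Ndst1, and its values below describe that place.

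The peaks lay mainly on the transcribed side of the start. In the 23 lists other than that of DKO day 0 replicate 2, 69.1% of the 75 windows had a peak 275 bp before the start, 26.7% at 25 bp before it and 91.8% at 575 bp after it. Averaged over the 2 kb on each side, 27.9% of windows were under a peak before the start and 71.1% after it. The other genes with a peak in every library had 28.8% before and 51.7% after. The form on both sides with a gap at the start itself was thus shared by both sets, and the wider cover within the gene was larger in the ribosomal set. The strongest peak's summit lay after the start at 61 of the 73 genes and before it at 12, at a median of 378 bp after it.

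Cover at 1525 bp after the start varied with the day. At days 0, 3, 6 and 9, in that order, 37.8% ± 2.8, 51.1% ± 14.4, 73.8% ± 3.4 and 60% ± 4.6 (SD over 3 libraries) of the 75 windows were under a peak there in WT cells. In DKO cells the values were 42.0% ± 2.8 (2 libraries), 44.9% ± 4.1, 48.0% ± 12.9 and 64.4% ± 5.0. The WT libraries of day 6 (70.7% to 77.3%) all lay above the DKO libraries of day 6 (33.3% to 57.3%). The other genes with a peak in every library were at 34.7% ± 1.0 in WT and 23.7% ± 5.4 in DKO cells at day 6. At day 6 the DKO lists were also the shorter ones. In DKO cells the lists held 94943 and 111001 peaks at day 0, without replicate 2, and 47448 to 74867 at day 6. Cover in these libraries was 40% to 44% at day 0 and 33.3% to 57.3% at day 6, which overlap. The part of list length was not tested.

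**Figure D2:**
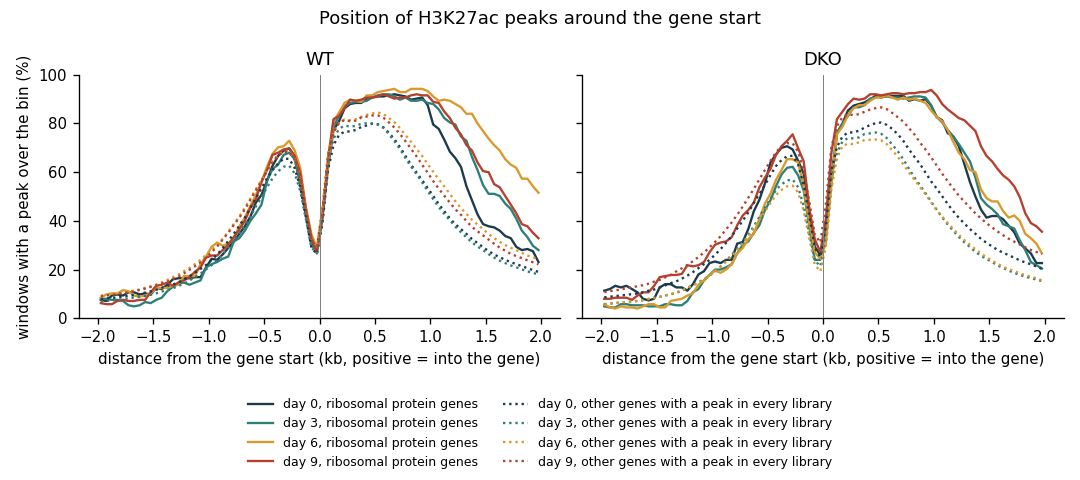
Share of windows with a peak over each 50-bp bin (y axis, percent) against distance from the gene start (x axis, kb), for the 75 tested ribosomal protein genes (solid) and the 9663 other genes with a peak in every library (dotted), averaged over the libraries of each day in WT (left) and DKO cells (right), without DKO day 0 replicate 2. Both sets dip at the start, the ribosomal set reaches 91.8% at 575 bp after it on average, and WT cells of day 6 reach 73.8% at 1525 bp.

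Small nucleolar RNA (snoRNA) genes, whose products guide modification of ribosomal RNA, are often carried in introns of these genes. A snoRNA gene lay within 27 of the 78 genes (34.6%), against 1.2% of all protein-coding genes and 1.62% of the other genes with a peak in every library. Rpl4 held 5 and Rpl13a held 4.

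The level of the set over differentiation depended on the scale. On the percentile among genes, which ranks each gene's strongest peak among all protein-coding genes of the same library, the median of the 75 genes in WT cells was 86.0 ± 1.8, 90.7 ± 0.3, 91.5 ± 0.3 and 88.7 ± 1.0 (SD, 3 libraries) at the 4 days in turn. DKO cells gave 86.7 ± 1.7, 90.7 ± 1.4, 91.1 ± 0.5 and 88.4 ± 1.2. In both genotypes the libraries of day 0 all lay below those of days 3 and 6. From day 0 to day 3 the percentile was higher at 58 and lower at 17 of 75 genes in WT cells, with a median change of 2.70, and higher at 57 and lower at 18 in DKO cells, with a median change of 3.63. Of all tested genes 51.8% in WT and 51.5% in DKO cells were higher, with a median change of 0.27 in both. From day 6 to day 9 the percentile of the ribosomal set was higher at 17 and lower at 58 genes in WT cells (median change −3.07), and higher at 26 and lower at 49 in DKO cells (−1.41). Over this step 47.9% of all tested genes were higher in WT (median change −0.08) and 55.3% in DKO cells (0.76). These steps between days carry no test.

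The kb under peaks moved otherwise. In the same order of days the median over the 75 genes was 1.87 ± 0.03, 1.97 ± 0.18, 2.25 ± 0.05 and 2.08 ± 0.11 kb in WT cells, and 2.12 ± 0.44, 1.79 ± 0.10, 1.84 ± 0.20 and 2.22 ± 0.05 in DKO cells. Without DKO day 0 replicate 2, whose median was 2.61 kb, the library medians lay between 1.62 and 2.30 kb. Over these 23 libraries the median kb of the ribosomal set went with the length of the list (Pearson r = 0.75, Spearman 0.71), and that of all tested genes did so more closely (r = 0.96, Spearman 0.94). The ratio of the first to the second was 1.42 to 2.15 and went the other way (r = −0.93, Spearman −0.83). These correlations are descriptions over libraries that share groups and carry no test.

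**Figure D3:**
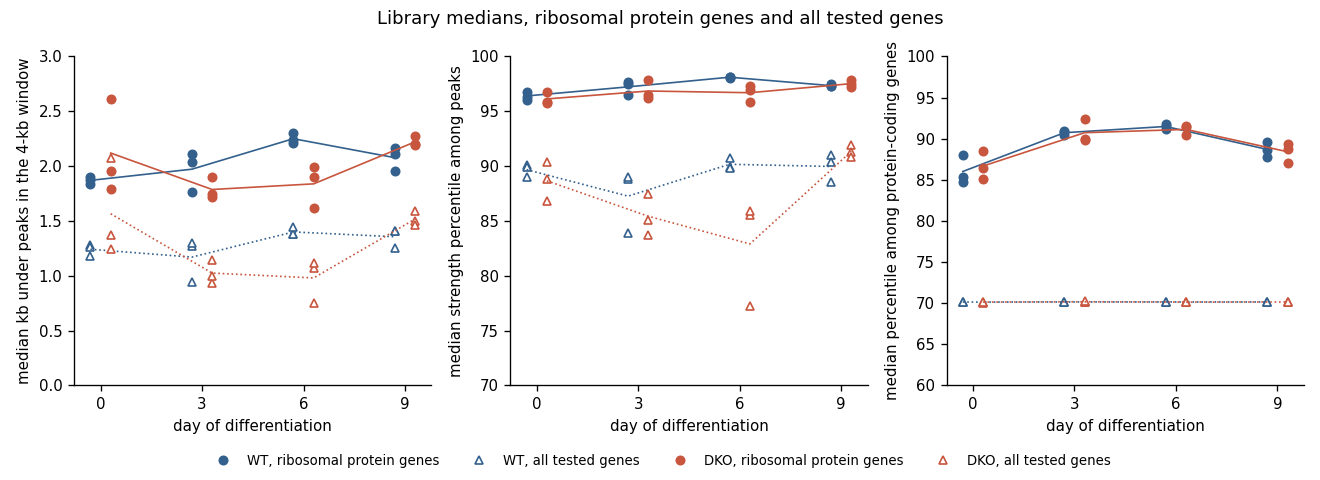
Library medians over the 75 ribosomal protein genes (filled circles, solid lines through group means) and all 13081 tested genes (open triangles, dotted) against day of differentiation, in WT (blue) and DKO (red), for kb under peaks (left), strength percentile among peaks (middle) and percentile among protein-coding genes (right). The strength of the ribosomal set stays between 95.8 and 98.2 in every library, while that of all tested genes goes down to 77.2 in a DKO library of day 6.

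Averaged over the 4 days, no ribosomal protein gene passed the exact permutation test of DKO against WT cells in either measure. In this permutation test, two-sided, with genotype relabelled within days, 0 of 75 genes had more kb under peaks in DKO cells (0% of all tested genes did) and 0 had fewer (0.0306% did). At an unadjusted p under 0.05 there were 2 genes (7.17% of all tested), Rpl28 (−0.32 kb, exact p = 0.00368, adjusted p = 0.379) and Rpl21 (−0.21 kb), and limma called 0. The largest differences otherwise were those of Rps14 (−0.34 kb) and Rpl13 (−0.27) and, upward, Rpl3 (0.19), Rps21 (0.17) and Rps9 (0.17), with adjusted p-values of 0.676 to 1. The median difference over the 75 genes was −0.025 kb, beside −0.011 over all tested genes.

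The strength percentile likewise gave 0 genes higher (0.168% of all tested genes) and 0 lower (1.9%) over the 4 days in the exact permutation test, with 13 genes at an unadjusted p under 0.05 (19.4% of all tested). Limma called 1, Rps14 (−4.58 percentile points, adjusted p = 0.0497), and the share of all tested genes it called is not given. Rps20 (−5.01), Rps14 and Rpl17 (−4.37) had the largest negative and Rpl3 (16.7), Rpl39l (10.1) and Rpl11 (2.07) the largest positive differences, with permutation adjusted p-values of 0.103 to 0.341. The value of Rpl17 includes its low library of day 0, described below. The median difference was −0.48 over the 75 genes and −1.41 over all tested genes.

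At single days the 3 libraries of a genotype cannot pass in a permutation test (smallest p 0.1), so limma was used with its spread shared over genes and Benjamini-Hochberg adjustment. At day 0 more kb lay under peaks at Rpl3 alone among the 75 genes (4.52% of all tested genes were called higher, and 0.107% lower). Rpl3 had 0.743, 0.847 and 0.758 kb in the WT libraries and 1.44, 2.05 and 1.37 kb in the DKO libraries, and the groups did not overlap. The difference was 0.84 ± 0.16 kb (SE, adjusted p = 0.00343), and was not called without the replicates numbered 2 (adjusted p = 0.0937). The window is that of the GENCODE start, shared with Syngr1, and at the RefSeq start no ribosomal protein gene was called at day 0. No gene was called lower (14 genes, and 25.1% of all tested, had an unadjusted p under 0.05 in either direction), the lowest differences being those of Rpl4 (−0.16), Rps7 (−0.11) and Rpl28 (−0.10). The median difference was 0.26 kb for the ribosomal set and for all tested genes, and DKO day 0 replicate 2, with its wide peaks, is part of that mean.

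In the strength percentile at day 0 limma called no gene higher (0.466% of all tested) or lower (0.527%), with 13 genes at an unadjusted p under 0.05 (10.5% of all tested). Rpl17 (−10.9), Rpl36a (−8.04) and Rps24 (−5.46) had the lowest and Rpl3 (8.0), Rpl11 (4.97) and Rpl39 (3.48) the highest differences, with adjusted p-values of 0.139 to 0.976. The strongest peak at Rpl17 had its summit beyond the window's edge in most libraries. In DKO day 0 replicate 3 Rpl17 was at 69.8, and at 93.7 with its RefSeq start. The other DKO libraries of day 0 had 88.1 and 90.6, and the WT libraries 91.0 to 97.1.

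At day 3, limma called no gene in kb under peaks, higher (0% of all tested) or lower (0.0917%), and 5 genes had an unadjusted p under 0.05 (7.36% of all tested). Rpl7a (−0.66 kb, adjusted p = 0.369) and Rps14 (−0.51) were among the lowest 3 and Rpl3 (0.27), Rps15a (0.23) and Rpl30 (0.15) highest. In strength, Rps15, a protein of the small subunit head, fell (1.52% of all tested genes were called lower and 0.283% higher). Its percentile was 98.4, 97.7 and 98.2 in WT and 92.9, 96.2 and 94.5 in DKO libraries, which did not overlap, with a difference of −3.59 ± 0.94 (SE, adjusted p = 0.0486). The call was lost without the replicates numbered 1, 2 or 3 and without WT day 3 replicate 3. No gene was called higher, and 9 had an unadjusted p under 0.05 in either direction (15.4% of all tested). Rpl3 had the largest positive difference, 47.2 (adjusted p = 0.0571), followed by Rpl13 (5.51) and Rpl36a (5.24).

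Day 6 gave the most differences between genotypes. In kb under peaks, 15 of 75 genes (20%) were called lower in DKO cells, where 19.4% of all tested genes were, and none was called higher (0.0688%), a direction that turned when libraries were scaled to the same mean. They were 9 of 45 Rpl genes, among them Rpl10a, Rpl34, Rpl31, Rpl23, Rpl7a, Rpl21, Rpl28 and Rpl22, and 6 of 30 Rps genes, among them Rps14, Rps15, Rps20, Rps2 and Rps13. The 3 DKO libraries all lay below the 3 WT libraries at 43 genes (57.3%), beside 51.9% of all tested genes. The median difference was −0.38 kb for the ribosomal set and −0.33 kb for all tested genes, so both shares were near those of the tested genes in all. The DKO lists of day 6 were also the shorter ones, as given above, and the part of list length was not tested. Marker lists differed too. At day 6 the summed kb of the endothelial markers ran from 1.09 to 1.41 (WT) and from 0.155 to 0.403 (DKO), and those of the preadipocyte markers from 13.1 to 14.2 (WT) and from 8.38 to 10.2 (DKO), without overlap. For adipocyte markers the ranges were 20.1 to 20.7 (WT) and 16.8 to 20.6 (DKO), and for immune cell markers 2.35 to 3.06 (WT) and 1.96 to 4.02 (DKO). The part of other cells in the day 6 values was not tested.

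Rpl10a had 3.60, 3.49 and 3.70 kb under peaks in the WT libraries of day 6 and 2.97, 3.03 and 2.25 kb in the DKO libraries. The groups did not overlap, and the difference was −0.85 ± 0.18 kb (SE, limma adjusted p = 0.00367). Rps15 had 2.38, 2.32 and 2.32 kb in WT and 1.91, 1.62 and 1.57 kb in DKO libraries (−0.64 ± 0.18, adjusted p = 0.0176), also without overlap. At the Rps14 window, which is at the start of Ndst1, WT libraries had 2.71, 2.91 and 3.00 kb and DKO libraries 1.73, 1.91 and 1.62 kb (−1.12 ± 0.24, adjusted p = 0.00297). Rpl34 differed by −0.83 ± 0.23 kb (adjusted p = 0.0186). Upward, the highest values were 0.014 kb at Rps9 and 0.008 kb at Rpl36al.

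The direction at day 6 turned with the scaling. When each library's kb were scaled to the same mean over all tested genes, which sets the median difference of all tested genes to about 0, the median difference of the ribosomal set became 0.30 kb. Then 15 of 75 genes were higher in DKO cells (9.54% of all tested genes) and 0 lower (10.1%), and none of these 15 was among the 15 that were lower before. They were Rps9, Rpl23a, Rps19, Rpl27a, Rps18, Rpl12, Rpl36al, Rps25, Rpl5, Rpl9, Rps6, Rpl32, Rpl38, Rpl13a and Rpl8. The scaled values of the 3 DKO libraries all lay above those of the 3 WT libraries at 34 genes (45.3%), beside 18.6% of all tested genes. With every peak set to the same width around its summit, limma called no ribosomal protein gene lower at day 6, and the share of all tested genes in that fit is not given. The ratio of the set's median kb to that of all tested genes was 1.90 in DKO and 1.61 in WT libraries of day 6 on average. Neither scale is free of the difference in list length.

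**Figure D4:**
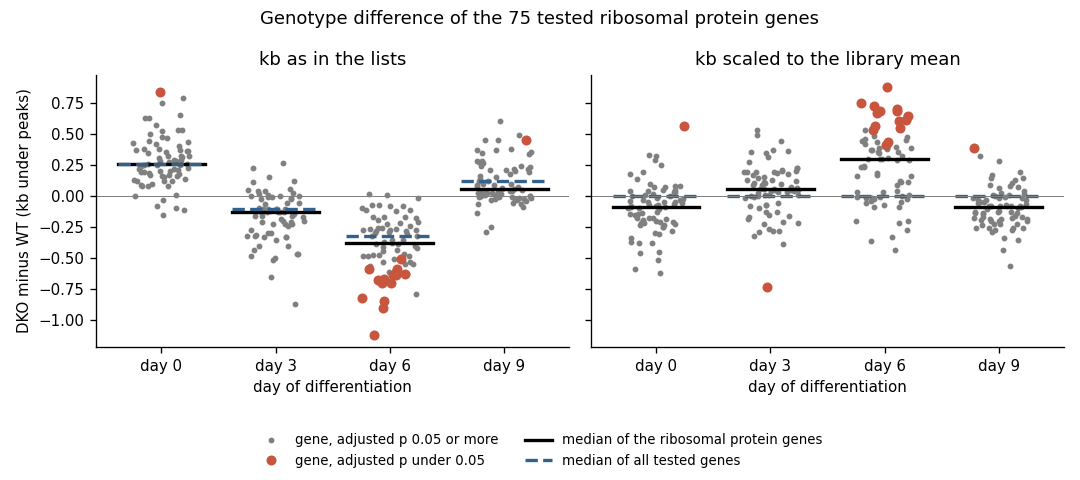
DKO minus WT difference in kb under peaks (y axis) of the 75 tested ribosomal protein genes at each day (x axis), as listed (left) and scaled to the library mean (right), with red points for limma adjusted p under 0.05, a black line for the set's median and a dashed blue line for the median of all tested genes. At day 6 the 15 red points lie below 0 on the left and 15 others above 0 on the right.

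The strength percentile at day 6 fell in DKO cells at 5 of 75 genes (6.67%), among them Rps14, Rpl39 and Rpl36al, where 20.9% of all tested genes fell, and rose at none (0.161%). The 3 DKO libraries all lay below the 3 WT libraries at 20 genes (26.7%), beside 34.5% of all tested genes. The median difference was −1.45 percentile points, against −4.80 over all tested genes. The scale ends at 100, and the WT libraries of day 6 had a median of 98.1 over the ribosomal set and 90.2 over all tested genes, so the changes of both sets are not on an equal footing and their difference was not tested. Rpl39 was at 91.3, 92.2 and 91.7 in WT and 77.5, 83.2 and 65.7 in DKO libraries (−16.2 ± 4.8, adjusted p = 0.0194). The groups did not overlap and the DKO libraries were the more spread out. Rpl36al differed by −4.89 ± 1.61 (adjusted p = 0.0328). Rps14 was called at the Ndst1 start (−12.0 ± 2.8, adjusted p = 0.00409), and at its RefSeq start the difference was 0.41 (adjusted p = 0.578). Upward, Rpl9 (0.75), Rps16 (0.48) and Rps25 (0.38) had the highest values. On the percentile among genes 1 of 75 genes was lower (2.97% of all tested) and none higher (0.657%).

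These counts at day 6 moved with the libraries used. The leave-out counts that follow lack the share of all tested genes called in the same fit. They describe only how stable the calls were. In kb, 15 genes became 32 when DKO day 0 replicate 2 was left out, 4 without the replicates numbered 1 in all 8 groups, which leaves 2 libraries a group, 21 without those numbered 2 and 0 without those numbered 3, the shortest DKO list among them. In strength, 5 became 1, 2 and 1 without the replicates numbered 1, 2 and 3.

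At day 9 limma called no ribosomal protein gene other than Rpl39l, where 1.77% of all tested genes were higher in DKO cells in kb and 0.107% lower, and 0.619% higher in strength and 0.0917% lower. Without the 395 genes that passed the minimum through 1 group, 1.58% of tested genes were higher in kb and 0.441% in strength. Rpl39l was chosen by the minimum through its DKO libraries of day 9. It had 0.545, 0.412 and 0.389 kb under peaks in the 3 DKO libraries of day 9 and 0 in the 3 WT libraries. Elsewhere it had a peak in WT day 6 replicate 2 (0.261 kb) and DKO day 6 replicate 3 (0.222 kb) only. Its strength percentiles in DKO cells of day 9 were 33.6, 43.4 and 50.9, and the set's median there was 97.5 on average. The Rpl39l promoter, printed above, carries matches to the ETS core on both strands. The DKO lists of day 9 held 111219 to 115923 peaks and the WT lists 91488 to 111761, and their part in these values was not tested.

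No gene was called lower at day 9, and 3 genes in kb (11.2% of all tested) and 10 in strength (6.94%) had an unadjusted p under 0.05 in either direction. Rpl13 (−0.29 kb), Rpl28 (−0.25) and Rpl23 (−0.14), and in strength Rpl12 (−3.24), Rpl31 (−2.89) and Rpl26 (−2.58), had the lowest differences, with adjusted p-values of 0.594 to 1.

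The DKO minus WT difference itself differed between days in 9 genes for kb under peaks (12%, where 19.4% of all tested genes did) and in 3 for strength (4%, where 5.69% did). Both counts include Rpl39l, and without the genes that passed the minimum through 1 group they were 8, beside 19.6% of all genes then tested, and 2, beside 5.63%. In kb these included Rpl3, Rpl7a, Rps14, Rpl10a, Rps2 and Rpl23, and in strength they were Rpl3 and Rpl36al. Rpl7a, which holds 3 snoRNA genes and whose window includes the start of Med22, differed by −0.70 kb at day 6. Rpl36al had a strength percentile of 90 to 93.9 in WT and 96.8 to 97.7 in DKO libraries of day 9, the reverse of its order at day 6. In kb the count was 1 without replicates numbered 1, 0 without 3, 16 without DKO day 0 replicate 2 and 17 without WT day 3 replicate 3, and in strength it was 0 without each numbered set. The share of all tested genes called in each of these fits is not given, so the counts describe only the stability of the calls.

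Between day 0 and day 9, averaged over genotypes, limma called 8 of the 75 ribosomal protein genes in kb under peaks. It called 5 of 75 genes higher (6.67%), Rps6, Rpl9, Rpl23a, Rps15 and Rpl39l, where 14.6% of all tested genes were, and 3 lower (4%), Rpl3, Rps15a and Rps27a, where 11.1% were. Rpl39l, which had no peak at day 0, is a call of the minimum itself, and without the genes that passed through 1 group 4 were higher, beside 14.7% of all genes then tested, and 3 lower, beside 10.9%. The mitochondrial ribosomal protein genes gave 5 higher and 3 lower of 76, and 7 of 7 tested adipocyte markers were higher.

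Rps6, the small subunit protein phosphorylated by S6 kinase after insulin or growth factor signalling, had 1.81, 2.05 and 2.01 kb in WT and 1.78, 2.70 and 1.99 kb in DKO libraries at day 0, and 2.69, 2.59 and 2.54 kb in WT and 2.98, 2.84 and 3.11 kb in DKO libraries at day 9. All 6 libraries of day 9 lay above 5 of the 6 of day 0, the sixth being DKO day 0 replicate 2, the list with wide peaks. The difference was 0.73 ± 0.15 kb (SE, limma adjusted p = 0.000452). Rpl9 rose by 0.51 ± 0.14 kb (adjusted p = 0.00616), Rpl23a by 0.57 ± 0.17 (0.0118) and Rps15 by 0.37 ± 0.13 (0.0345).

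Rps15a, a small subunit protein, had 2.60, 3.23 and 3.02 kb in WT and 3.18, 4.00 and 3.26 kb in DKO libraries at day 0, and 1.81, 2.20 and 2.55 kb in WT and 2.37, 2.72 and 2.48 kb in DKO libraries at day 9 (−0.86 ± 0.16, adjusted p = 0.00015). Its values of both days met only at the edges, with 2.60 kb the lowest of day 0 and 2.72 kb the highest of day 9. Rps27a changed by −0.55 ± 0.19 kb (adjusted p = 0.031). Its libraries had 2.405 to 4.00 kb at day 0 and 2.22 to 2.69 kb at day 9, which overlap. For Rps15a and Rps27a alike, the 4.00 kb are those of DKO day 0 replicate 2, where peaks filled the window. Rpl3, at its GENCODE window, changed by −0.70 ± 0.11 (adjusted p = 2.85e-05), a call that was not made at its RefSeq start.

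**Figure D5:**
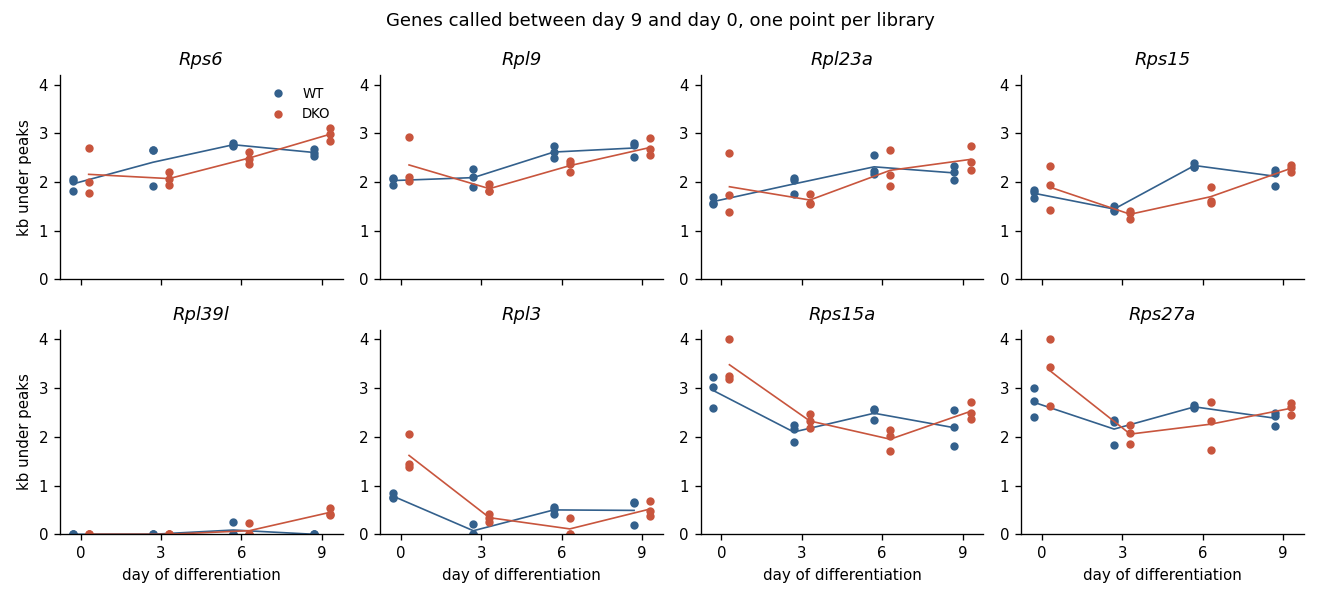
Kb under peaks (y axis) in every library (points, WT blue, DKO red, lines through group means) against day of differentiation (x axis) for the 8 genes called between day 9 and day 0, of which Rpl39l is shown as a description. Rps6, Rpl9, Rpl23a and Rps15 end higher than they start, Rpl39l leaves 0 in the DKO libraries of day 9, and Rpl3, Rps15a and Rps27a start highest in DKO cells at day 0.

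In strength, limma called 9 of 75 genes (12%) higher at day 9 than at day 0, where 14.3% of all tested genes were. Without the genes that passed the minimum through 1 group, Rpl39l among them, 8 ribosomal protein genes remained, beside 14.3% of all genes then tested. Limma called none lower (6.63% of all tested fell), with 19 genes at an unadjusted p under 0.05 in either direction (32.0% of all tested). The 8 genes were Rpl36, Rpl22, Rpl11, Rpl27a, Rpl13, Rpl37, Rps19 and Rpl34, of which 7 were of the large subunit. Rpl11, which with Rpl5 and 5S ribosomal RNA can bind the p53 regulator Mdm2, had strength percentiles of 86.8, 91.0 and 96.9 in WT and 97.4, 98.1 and 94.2 in DKO libraries at day 0, and of 96.8 to 98.7 in WT and 99.1 to 99.4 in DKO libraries at day 9 (4.36 ± 1.10, adjusted p = 0.00546). Its groups overlapped in part. Rpl22 went from 86.7 to 90.9 at day 0 to 92.7 to 97.0 at day 9 over both genotypes, without overlap (6.12 ± 1.48, adjusted p = 0.00377). Rpl36 rose by 4.52 ± 1.04 (adjusted p = 0.0024) and Rpl27a by 1.34 ± 0.35 (0.00739). Rpl3 (−22.1), Rpl29 (−1.66) and Rpl12 (−1.49) had the lowest values, with adjusted p-values of 0.0875 to 0.319.

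On the percentile among genes, 7 genes rose (14.9% of all tested) and 3 fell (13.6%) between these days. These counts too moved with the libraries used. Here as well the share of all tested genes called without those libraries is not given, so the counts describe only the stability of the calls. In kb, 5 higher became 25 without DKO day 0 replicate 2, 13 without the replicates numbered 2, which include it, 2 without those numbered 3 and 0 without those numbered 1, and in strength 9 became 3 without those numbered 2 and 1 without those numbered 1.

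Markers of other cells moved with the day. The ranges of the genotypes were also apart for the immune list at day 0 and for the endothelial list at day 6. Of 5 immune cell markers, 2 had no peak in any library, Cd3e among them, and the other 3 (Ptprc, Adgre1 and Cd68) all fell by day 9, with summed kb at day 0 of 5.25 to 5.90 (WT) and 6.56 to 8.99 (DKO) and at day 9 of 1.67 to 2.82 (WT) and 2.76 to 2.86 (DKO). Of 4 endothelial markers Cdh5 had no peak, and the list summed at day 0 to between 1.83 and 2.55 (WT) and 2.53 and 4.94 (DKO) and at day 9 to between 0.741 and 1.38 (WT) and 0.963 and 1.69 (DKO). Of 4 epithelial markers only Krt8 had a peak, in 1 library. The part of these cells in the ribosomal gene values was not tested.

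Other ribosomal proteins with roles beyond the ribosome were not called at day 6 or between days 0 and 9 in kb as listed. Rpl5 differed by −0.13 ± 0.19 kb at day 6 (adjusted p = 0.63) and by 0.14 ± 0.14 kb between days (0.505). Rpl13a, often used as a reference gene, differed by −0.36 ± 0.20 kb (0.192) and −0.14 ± 0.15 kb (0.548), with strength percentiles of 96.8 to 99.8 in all libraries. Rps3, which also takes part in DNA repair, differed by −0.22 ± 0.20 kb (0.415) and 0.04 ± 0.14 kb (0.883), with strength percentiles of 88.9 to 97.5. The paralogue Rps27l differed by −0.26 ± 0.18 kb (0.257) and 0.13 ± 0.12 kb (0.513). With 3 libraries a group, such errors leave differences of the size of these standard errors undetectable in these lists.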

How the data were processed

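The deposited files were 24 narrowPeak lists, 1 per H3K27ac library. Per the labels and the study's methods, the authors aligned reads to mm10 with BWA after trimming with cutadapt 1.18 and called peaks with MACS2 2.1.1.20160309. The deposited columns used were the fold enrichment (a ratio over background) and the −log10 of the q-value, whose lowest value was 2.00 in the lists. Which of the 16 input libraries served as control for each list is not given in the sources used here, and read depth is unknown. Gene starts came from the GENCODE annotation of GRCm38 (mm10), and promoters from RefSeq GRCm38.p6.

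Kb under peaks and the strength percentile were computed per gene and library with Python 3.11.15, and tested with limma 3.58.1 in R 4.3.3 (8 group means, trended and robust variance) and, over the 4 days, with an exact permutation test (160000 relabellings, smallest p 1.25e-05). P-values were adjusted by the Benjamini-Hochberg method over 13081 genes, with a threshold of 0.05. Tests were also run on simulated data with independent noise and no shift of whole libraries. That simulation cannot check them under lists of unequal length. The differential tests of the study use reads, which the lists do not hold. Members and lists were chosen with earlier results of these data known. Named genes were those with known roles and paralogues, up to 5 called genes per test and direction (or the 3 largest differences where none was called), and the 5 highest and 5 lowest in strength. Further genes lower at day 6, the 15 higher after scaling, and the genes called in the interaction and strength tests beyond 5 were named after their values were seen. Single-gene results of a few members and marker genes are not reported here, and these genes stay in every fit, count and median. Deviations of same-numbered WT and DKO libraries correlated between −0.131 and 0.201 in kb and between −0.0776 and 0.0886 in strength (12 pairs each), so replicate numbers were not used as pairs. Alternatives were another window, RefSeq starts (chosen after seeing the data), a stricter peak threshold, the 20000 strongest peaks, all genes with a peak, fixed peak width, scaling, other percentiles and leaving out replicates.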

Additional observations from a re-analysis of the deposited data

Results flagged for a closer look

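The DKO minus WT difference differed between days at the 8 gene and measure pairs given here, by limma's F test of the interaction with adjustment over 13081 genes. In kb under peaks the adjusted p-values were 0.00693 for Rpl3, 0.0108 for Rpl7a, 0.0219 for Rps14, 0.0233 for Rpl10a, 0.0274 for Rps2 and 0.0327 for Rpl23. In the strength percentile they were 0.0185 for Rpl3 and 0.0307 for Rpl36al. The windows of Rpl3 and Rps14 lie at GENCODE starts far from the RefSeq starts, as given in the report, and the call for Rpl3 was not made with RefSeq starts.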

How the results depend on the processing

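Read depth is unknown, list length was not shown to measure it, and 3 libraries a group limit every single-day call. The number of genes with a peak in every library stayed within 1.5 times of 73 under the alternatives run. The counts of called ribosomal protein genes were less stable, and the causes were not tested. For most counts below, the share of all tested genes called under the same alternative is not given. They describe how stable the calls were and not a trait of the ribosomal set.

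With only the 20000 strongest peaks, kb under peaks gave 2 genes lower at day 6, 0 higher at days 0 and 9, 1 higher and 0 lower between days 0 and 9, and 1 in the interaction, and strength gave 0 lower at day 3, 3 lower at day 6, 0 higher at day 9 and 1 in the interaction. A window of 1 kb gave, in kb, 4 lower at day 6, 2 higher between days and 3 in the interaction (Rps15 between days turned, adjusted p = 0.997), and in strength 1 lower at day 0 and 0 at day 3. RefSeq starts, chosen after seeing the data, gave 0 higher in kb and 1 lower in strength at day 0, and Rps14 in strength at day 6 turned (0.578). A peak summit within the window gave, in strength, 1 lower at day 0 and 0 at day 3. With fixed peak width, kb gave 0 at day 0, 0 lower at day 6, 1 higher and 1 lower between days and 0 in the interaction, and at day 6 these, among others, turned: Rpl21 (adjusted p = 1), Rpl22 (0.545), Rpl23 (0.389), Rpl34 (0.877), Rpl7a (0.878), and Rps14 (1). Scaling to the library mean gave 1 lower over the 4 days and 1 lower at day 3 (1.59% of all tested genes). At day 6 it gave 15 higher (9.54% of all tested) and 0 lower (10.1%), and Rpl10a (0.83), Rpl22 (0.488), Rpl28 (1) and Rpl7a (0.299), among others, turned. The percentile among genes gave 0 lower at day 3 (0.91% of all tested genes), 1 at day 6 (2.97%) and 0 higher at day 9 (0.451%). It gave 3 lower between days (13.6%) and 0 in the interaction. Limma over the 4 days gave 1 lower in strength, and the permutation test between days gave 1 higher in kb and 4 in strength. A stricter peak threshold (−log10 q of at least 5) and taking all genes with a peak in at least 1 library moved no count by over 1.5 times.

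The replicate numbers are not shown to pair the samples. With them as a replicate block the interaction gave 14 genes in kb, and strength gave 0 lower at day 3 and 1 lower between days. Leaving out replicates moved the counts, in kb, over 0 to 1 higher at day 0, 0 to 32 lower at day 6, 0 to 2 higher at day 9, 0 to 25 higher and 2 to 3 lower between days and 0 to 17 in the interaction. In strength they ran over 0 to 1 higher and 0 to 1 lower at day 0, 0 to 1 lower at day 3, 1 to 7 lower at day 6, 0 to 1 higher at day 9, 1 to 9 higher and 0 to 1 lower between days and 0 to 4 in the interaction. Leaving out the 395 tested genes that met the minimum through 1 group, a step chosen after seeing the data, left 0 ribosomal protein genes higher at day 9 and took Rpl39l from the other counts that held it.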
